A study of Mus musculus with 20 samples.

Results

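F-box protein genes other than the well-known atrophy genes of the family were described in mouse soleus muscle. The genes were taken by symbol: every row of the count table whose Ensembl identifier maps to a protein-coding gene named Fbxl, Fbxo or Fbxw with a number, leaving out Fbxo30, Fbxo31, Fbxo32 and Fbxo40. This gave 73 genes of the 56941 rows, of which 18 were Fbxl, 32 Fbxo and 23 Fbxw genes. The symbol rule uses no measured value. A further 2 rows that match the pattern are not protein coding, an antisense transcript of Fbxl12 and the pseudogene Fbxw23, and were not counted.

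RNA was sequenced from the soleus, a hind-limb muscle rich in slow oxidative fibres, of 10 exposed and 10 control C57BL/6J mice. The exposed mice received hind-limb unloading for 14 days, ionizing radiation and stress through the diet. The control mice were sham-irradiated and otherwise housed alike. No genotype other than the strain, no age and no radiation dose is stated in the labels, and the 3 exposures were given together, so their effects cannot be told apart. The design gives 10 mice a group and 1 muscle a mouse.

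An F-box protein is the part of an SCF ubiquitin ligase that holds the substrate. Its F-box binds the adaptor Skp1, which sits on the scaffold Cul1 with the RING protein Rbx1, and a second domain picks the protein to be ubiquitinated. The class letter names that domain: leucine-rich repeats in Fbxl, WD40 repeats in Fbxw, and other or no known domains in Fbxo. In muscle the family is best known for Fbxo32 (atrogin-1, also MAFbx), whose transcript rises in many forms of wasting; the genes described here are its relatives, with substrates in growth control, the circadian clock, mitochondria, iron sensing and synapses.

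Total counts were 17336017 to 43424464 per library, so that 3 counts, the limit allowed where none was seen, correspond to 0.0691 to 0.173 CPM, the normalised read count scaled to a common library size. That limit covers counting error only. Slow fibre markers were low and fast fibre markers high in every exposed library: the summed CPM of 8 slow fibre genes was 7490 to 16200 in exposed and 21700 to 30100 in control libraries, and that of 7 fast fibre genes was 50100 to 65200 in exposed and 12100 to 18900 in control libraries. Exposed replicates 1 to 4 stood apart by nerve and Schwann cell markers, whose sum over 10 genes was 538 to 1550 CPM in these 4 libraries, 101 to 193 CPM in exposed replicates 5 to 10 and 100 to 203 CPM in controls. Fibroblast and tendon markers summed to 402 to 631 CPM in exposed and 490 to 1210 CPM in control libraries, with 2 of 6 genes higher and 4 lower. The sum over 4 fat markers was 133 to 326 CPM in exposed replicates 1 to 4, 23.3 to 140 CPM in exposed replicates 5 to 10 and 22.4 to 157 CPM in controls. None of the marker genes was at 0, and all 10 nerve markers passed the test as higher in exposed muscle. Results are therefore also given without those 4 libraries. In bulk muscle, fewer cells of a type and less RNA per cell cannot be told apart.

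Of the 73 F-box genes, 50 had enough counts to be tested. Among them 13 (26%) passed an adjusted p of 0.05 in edgeR's quasi-likelihood test, 4 higher and 9 lower in exposed muscle. Over all 16778 genes tested, 57.6% passed (28.7% higher and 28.9% lower). Of the 13084 protein-coding ones, 59.7% passed (3367 genes higher and 4443 lower). At an unadjusted p under 0.05 the F-box count was 18 of 50, beside 10402 of all 16778 genes tested. The genes that passed were Fbxo48, Fbxw17, Fbxl14 and Fbxl20 on the higher side and Fbxl2, Fbxw7, Fbxo25, Fbxl6, Fbxw5, Fbxo22, Fbxw11, Fbxw4 and Fbxo38 on the lower side. Only Fbxl2 and Fbxw7 had exposed and control libraries whose ranges did not overlap (background 17.4% of tested genes). Of the 13, Fbxl2, Fbxw7 and Fbxo48 changed at least 1.5-fold (background 19.7%). Without exposed replicates 1 to 4, 9 F-box genes passed (18%, beside 51.3% of all genes), 3 higher and 6 lower. Of these, 7 were among the 13. The 2 gained were Fbxl17 (log2 fold change 0.125, adjusted p = 0.0249) and Fbxw9 (-0.539, adjusted p = 0.00404). With all 20 libraries Fbxw9 had a log2 fold change of -0.344 (adjusted p = 0.0641). With upper-quartile factors 7 F-box genes were higher and 5 lower, and with library size alone 9 and 5. Over all genes the higher share of calls then moved to 58.8% and 61.3%, against 49.8% here.

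**Figure D1:**
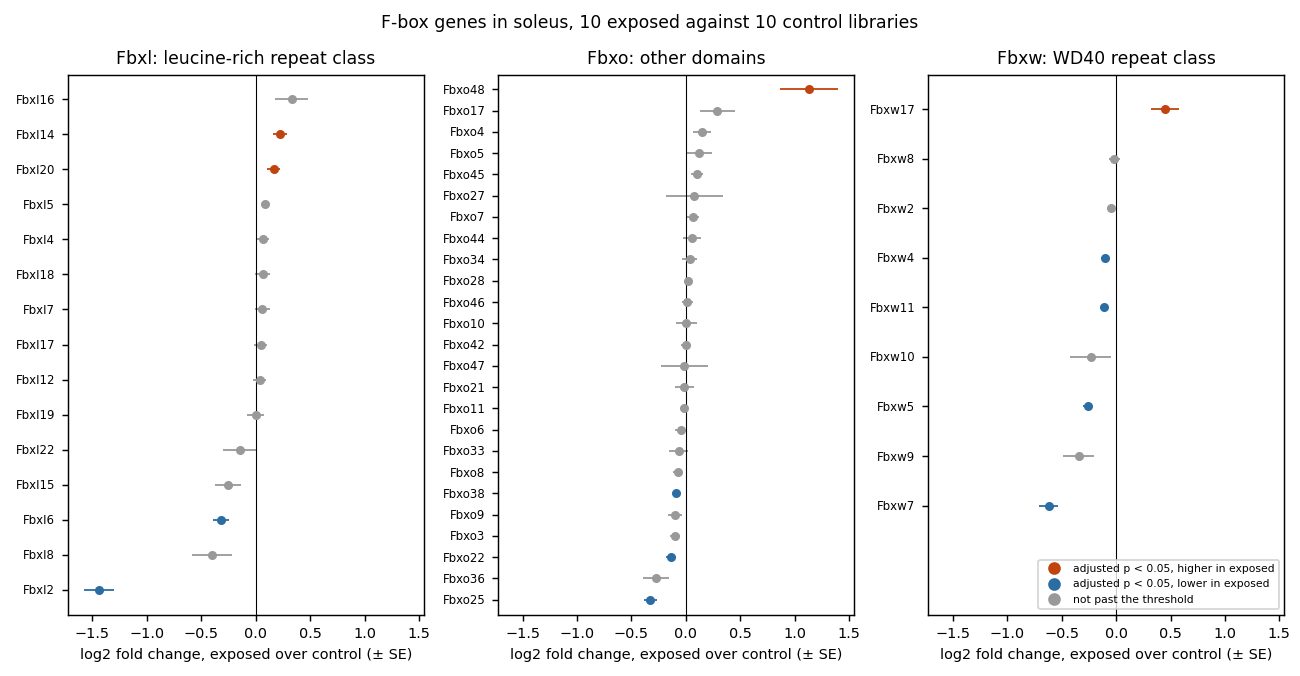
Log2 fold change, exposed over control, of the tested F-box genes by class, without 1 gene that is not reported here, with horizontal lines for ± SE over 10 libraries a group; colours mark genes past the adjusted p of 0.05. Fbxl2 lies lowest at -1.44 and Fbxo48 highest at 1.13, while most genes lie close to 0.

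Most F-box genes differed little. The median size of the log2 fold change was 0.0952 over all 50 tested F-box genes, the 13 included. It was 0.274 over all tested genes and 0.246 over protein-coding ones. With its sign the F-box median was -0.0077, beside 0.0229 over all genes and -0.0296 over protein-coding ones. It became 0.0524 with upper-quartile scaling, beside 0.083 over all genes, and 0.0745 with library size alone, beside 0.104. A difference smaller than 0.1 on the log2 scale was found for 28 of the 50 genes (56%), beside 20.6% of all tested genes. For 37 genes the test was not passed. In 25 of these the 95% interval of the difference lay within 1.25-fold either way, and in 31 within 1.5-fold. The SE behind these intervals does not come from the test, and the intervals can disagree with it. For Fbxl15 the interval was -0.497 to -0.0115, with an unadjusted p of 0.0718 in edgeR's test. The widest interval, 1.09 log2 units, belonged to Fbxo27, a lectin-type F-box gene with 111 counts over all exposed and 103 over all control libraries.

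**Figure D2:**
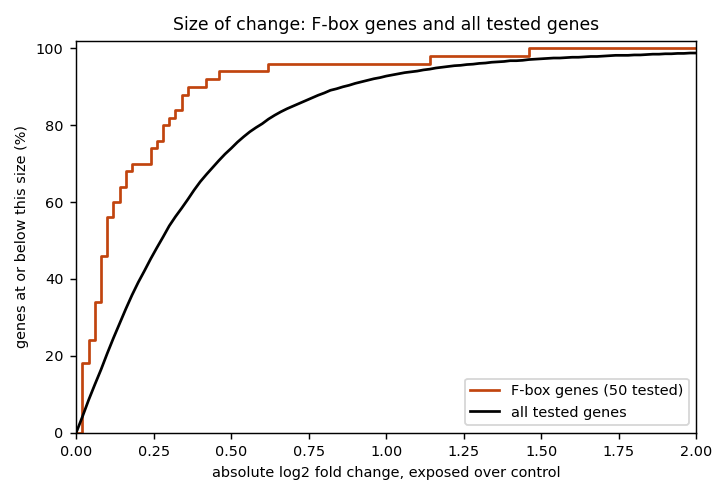
Share of genes (percent) whose absolute log2 fold change, exposed over control, is at or below the value on the x axis, for the 50 tested F-box genes and for all 16778 tested genes. The F-box line lies above the other over most of the axis: 90% of F-box genes and 59.5% of all genes are under 0.35.

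The summed level of the 73 genes was 938.3 ± 28.6 CPM in exposed and 974.3 ± 23.9 CPM in control libraries (SD, n = 10 each), a log2 difference of -0.0547 that became 0.0055 with upper-quartile scaling and 0.0243 with library size alone. The 10 most abundant genes held 60.6% of it. By class, 4 of 16 tested Fbxl genes passed (2 higher, 2 lower), 4 of 25 Fbxo genes (1 higher, 3 lower) and 5 of 9 Fbxw genes (1 higher, 4 lower). These shares are 25%, 16% and 55.6%, beside 57.6% of all tested genes, and the Fbxw count was 3 with upper-quartile factors, with library size alone and without exposed replicates 1 to 4. The spread between control libraries, as a coefficient of variation, was 2.87% to 59.8% with a median of 10.5%, and it was smallest for Fbxo11.

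DNA from the 250 bases before the start is shown for the 4 genes that differed most, as a stretch where transcription factors can act on each. The windows come from RefSeq promoter entries on GRCm38.p6, which hold 55 of the 73 genes; the count table was made on GRCm39, and no coordinate was carried between the builds. Each line gives the longest run of the 250 bases before the start that lies outside annotated exons, 5′ to 3′ on the gene's strand. The printed run stops 23 bases short of the start for Fbxl2 and 65 bases short for Fbxw7. It reaches the start for Fbxw17 and the first listed start of Fbxo48. Distances given below are counted from the start, not from the end of the printed run. Capitals mark GGGCGG, the GC box read by Sp-family factors, or CACGTG, the E-box read by clock and Myc factors, on either strand. Fbxl2 is shown as the largest fall, at chr9:114026775-114027001 on the minus strand. Fbxw7 is shown as the other gene whose groups did not overlap, at the third of its 3 listed starts, which has the longest stretch outside exons, chr3:84951961-84952145 on the plus strand. Fbxo48 at chr11:16951283-16951374 and Fbxw17 at chr13:50417614-50417863, both on the plus strand, are the largest rises.
Fbxl2: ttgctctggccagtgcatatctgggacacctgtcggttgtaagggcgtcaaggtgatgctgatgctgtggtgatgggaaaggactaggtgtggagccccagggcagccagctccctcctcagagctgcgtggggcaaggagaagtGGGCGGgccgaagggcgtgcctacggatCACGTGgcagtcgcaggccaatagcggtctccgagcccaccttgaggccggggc
Fbxw7: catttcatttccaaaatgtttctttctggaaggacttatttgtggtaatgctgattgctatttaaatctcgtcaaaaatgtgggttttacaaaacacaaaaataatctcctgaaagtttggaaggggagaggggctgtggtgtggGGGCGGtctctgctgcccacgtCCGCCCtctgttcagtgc
Fbxo48: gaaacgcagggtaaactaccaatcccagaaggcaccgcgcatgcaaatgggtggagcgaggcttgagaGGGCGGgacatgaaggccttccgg
Fbxw17: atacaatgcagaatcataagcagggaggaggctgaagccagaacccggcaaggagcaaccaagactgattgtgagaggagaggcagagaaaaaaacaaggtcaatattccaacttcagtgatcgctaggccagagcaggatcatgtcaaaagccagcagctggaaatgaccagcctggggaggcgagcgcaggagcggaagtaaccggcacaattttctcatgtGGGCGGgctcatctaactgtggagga

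The Fbxl2 stretch holds a GC box 105 bases and an E-box 77 bases before the start. The Fbxw7 stretch holds GC boxes 105 and 83 bases before the start (the 125 exon-free bases before its second start, with 28.8% GC, hold none of the motifs searched), the Fbxw17 stretch holds 1 at 26 bases, and that of Fbxo48 holds 1 at 24 bases before the first of its 2 listed starts. Over whole 250-base windows, GGGCGG on either strand was in 53.3% of 75 windows of F-box genes, beside 32.7% of 32851 windows of all genes, and the median GC content was 56.4% beside 52.4%. CACGTG was in 4.0% of the F-box windows, beside 6.02% of all. GTAAACA, a FoxO site, on either strand was in 0 of 75 F-box windows, beside 3.17% of all, and the full palindromic glucocorticoid response element was in 0, beside 0.00913%. A GC box is thus in the printed stretches of fallers and risers alike. A match of letters is not a site in use.

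Fbxl2 fell the most. Its protein carries a lipid anchor and, in human and mouse cells, has been tied to turnover of an inositol trisphosphate receptor and of a regulatory subunit of phosphoinositide kinase. The 10 exposed libraries ran from 0.714 to 1.51 CPM with a median of 1.05, and the 10 controls from 2.44 to 4.35 CPM with a median of 2.95. Every exposed library was below every control. Fbxl2 averaged 1.111 ± 0.254 CPM in exposed and 3.069 ± 0.666 CPM in control libraries (SD, n = 10 each), 2.72-fold lower (log2 fold change -1.44, SE 0.138, adjusted p = 5.23e-09). These levels rest on 354 counts over the exposed and 928 over the control libraries. Exposed replicates 1 to 4, rich in nerve markers, had 1.30 to 1.51 CPM and the other 6 exposed libraries 0.714 to 1.11 CPM. With the other 6 alone, Fbxl2 was 3.23-fold lower than in controls (adjusted p = 1.36e-08). Its exons share 496 bases, 11.2% of their length, with Ubp1 on the opposite strand, and no source says whether reads were counted by strand. Ubp1 averaged 33.92 CPM in exposed and 32.38 CPM in control libraries (adjusted p = 0.0922).

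Fbxw7, the substrate receptor for cyclin E, Myc, Jun and the active part of Notch, was the most abundant gene with a fall of at least 1.5-fold. It ran from 29.9 to 45.7 CPM with a median of 36.0 in exposed libraries and from 47.1 to 69.4 CPM with a median of 54.6 in controls, again with no overlap. Its means were 36.47 ± 5.16 CPM in exposed and 56.03 ± 6.88 CPM in control libraries (SD, n = 10 each), 1.54-fold lower (log2 fold change -0.62, SE 0.0839, adjusted p = 5.06e-07). Without exposed replicates 1 to 4 the log2 fold change was -0.648 (adjusted p = 7.8e-06).

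Of 8 F-box genes listed for growth, the cell cycle and turnover of Notch or Myc, all were tested, 1 passed as higher and 2 as lower (37.5%, beside 57.6% of all tested genes). Besides Fbxl2 and Fbxw7 this was Fbxl14, which in vertebrate cells targets the transcription factor Snail. Fbxl14 ran from 10.0 to 13.9 CPM with a median of 11.4 in exposed libraries and from 8.41 to 11.8 CPM with a median of 9.9 in controls. The ranges overlap, with 9 of 10 exposed libraries above the control mean, and the gene was 1.17-fold higher (log2 fold change 0.222, SE 0.0661, adjusted p = 0.00627). Of the 5 that did not pass, Fbxo11, which in human lymphoma cells targets BCL6, had the smallest spread of the family between control libraries, with 51.7 to 60.4 CPM in exposed and 54.6 to 60.4 CPM in control libraries (log2 fold change -0.019, 95% interval -0.0686 to 0.0312, adjusted p = 0.618).

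Among the genes that passed, the next 3 falls by size were in Fbxo25, Fbxl6 and Fbxw5. Fbxl8 (log2 fold change -0.404, adjusted p = 0.0851) and Fbxw9 (-0.344, adjusted p = 0.0641) had larger falls but did not pass. Fbxo25, the closest relative of the atrophy gene Fbxo32, ran from 5.57 to 8.03 CPM with a median of 6.21 in exposed libraries and from 7.12 to 9.22 CPM with a median of 8.04 in controls. All but 1 exposed library lay below the control mean (1.25-fold lower, log2 fold change -0.326, SE 0.0627, adjusted p = 0.000223). Fbxl6, a leucine-rich repeat gene, ran from 3.21 to 4.47 CPM with a median of 3.78 in exposed libraries and from 3.91 to 5.91 CPM with a median of 4.67 in controls. It lay below the control mean in 10 of 10 exposed libraries and was 1.25-fold lower (log2 fold change -0.319, SE 0.0731, adjusted p = 0.00178). Fbxw5, a WD40 gene whose human protein also serves Cul4 ligases, ran from 31.2 to 38.4 CPM with a median of 34.6 in exposed libraries and from 36.7 to 45.6 CPM with a median of 42.2 in controls. The highest exposed libraries reach just into the control range, and Fbxw5 was 1.2-fold lower (log2 fold change -0.262, SE 0.0442, adjusted p = 2.36e-05). All 3 passed the test without exposed replicates 1 to 4 as well, with adjusted p of 0.00788 for Fbxo25, 0.00591 for Fbxl6 and 0.000854 for Fbxw5.

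A further 4 genes passed with falls of at most 1.1-fold. Fbxo22, which in human cells targets the histone demethylase KDM4A, ran from 16.4 to 20.5 CPM with a median of 17.9 in exposed and from 16.9 to 22.3 CPM with a median of 19.7 in control libraries (log2 fold change -0.134, adjusted p = 0.0229). Fbxw11, the second β-TrCP, which recognises phosphorylated β-catenin and IκB, ran from 45.7 to 53.9 CPM with a median of 48.6 in exposed and from 50.7 to 57.1 CPM with a median of 53.2 in control libraries (-0.109, adjusted p = 0.009). Fbxo38, known from inherited motor neuron disease in humans, ran from 26.1 to 29.5 CPM with a median of 28.3 in exposed and from 28.6 to 32.1 CPM with a median of 29.8 in control libraries (-0.092, adjusted p = 0.0187). In Fbxo38 all 10 exposed libraries were below the control mean, in Fbxo22 and Fbxw11 9 of 10. Fbxw4 (dactylin, a gene of limb development in mice) ran from 16.3 to 19.8 CPM with a median of 18.1 in exposed and from 17.8 to 21.1 CPM with a median of 19.4 in control libraries (-0.105, adjusted p = 0.0352). Fbxw4 shares 676 exon bases, 21.4% of its length, with Gm17018 on the opposite strand, a gene that was itself 1.5-fold lower in exposed muscle. None of the 4 passed without exposed replicates 1 to 4. The log2 fold change there was -0.075 for Fbxo22 (adjusted p = 0.271), -0.081 for Fbxw11 (adjusted p = 0.0936), -0.084 for Fbxo38 (adjusted p = 0.0661) and -0.067 for Fbxw4 (adjusted p = 0.26). None passed with upper-quartile factors or library size alone either.

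**Figure D3:**
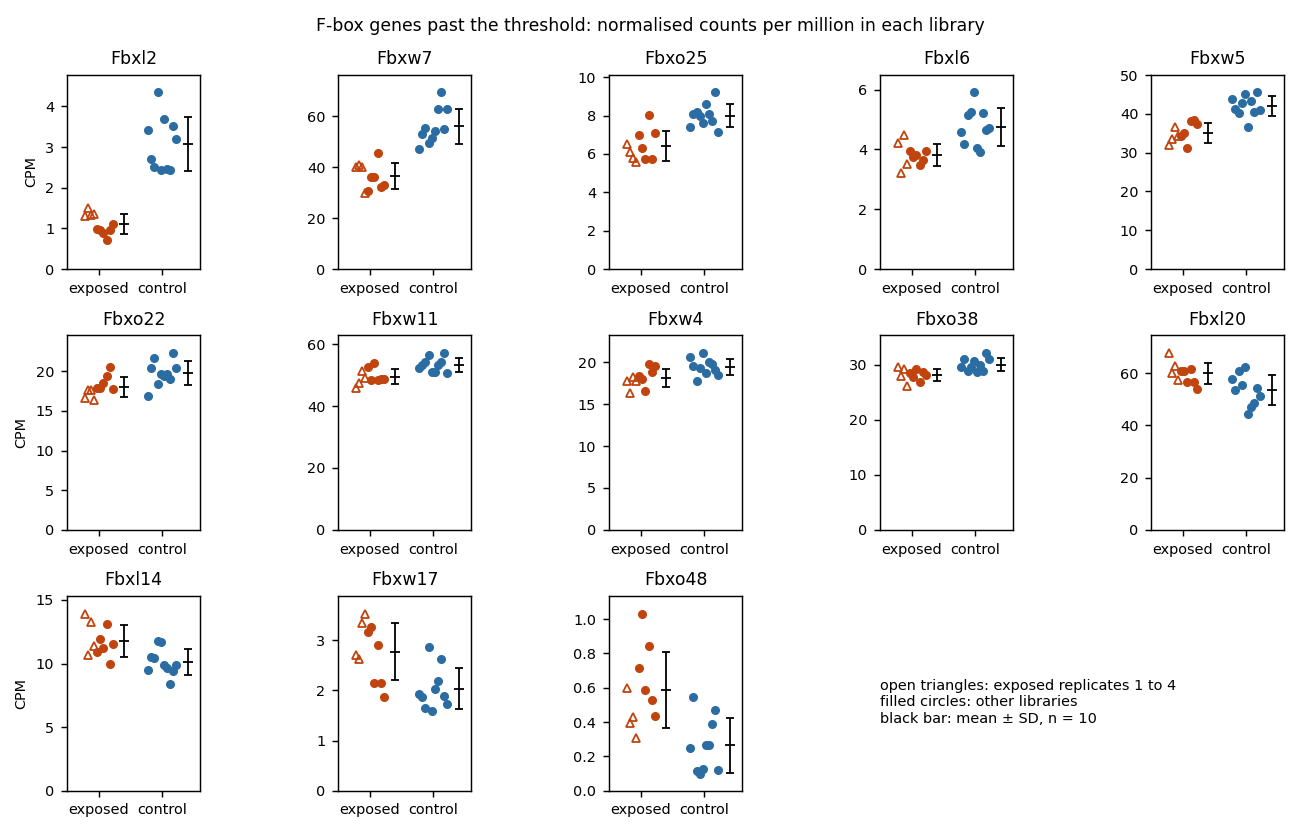
CPM in each of the 10 exposed (left, orange) and 10 control (right, blue) libraries for the 13 F-box genes past an adjusted p of 0.05, with y axes from 0; open triangles are exposed replicates 1 to 4 and black bars the mean ± SD. Groups are apart in Fbxl2 and Fbxw7 and overlap in the other 11.

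Fbxo48, whose human protein has been reported to target active AMPK, rose the most and was also the scarcest gene to pass. It ran from 0.306 to 1.03 CPM with a median of 0.557 in exposed libraries and from 0.0988 to 0.546 CPM with a median of 0.257 in controls. All 10 exposed libraries were above the control mean, although the ranges overlap. The means were 0.5875 ± 0.222 CPM in exposed and 0.2647 ± 0.158 CPM in control libraries (SD, n = 10 each), 2.19-fold higher (log2 fold change 1.13, SE 0.267, adjusted p = 0.00192), on 181 counts in all exposed and 83 in all control libraries. Without exposed replicates 1 to 4 it was 2.6-fold higher (adjusted p = 0.00104).

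Fbxw17 was 1.37-fold higher, with 1.87 to 3.52 CPM and a median of 2.8 in exposed libraries and 1.59 to 2.86 CPM and a median of 1.9 in controls (log2 fold change 0.452, SE 0.129, adjusted p = 0.00468). Its ranges overlap, with 9 of 10 exposed libraries above the control mean, and without exposed replicates 1 to 4 its log2 fold change was 0.356 (adjusted p = 0.0535). Fbxl20, called Scrapper for its action on the release-site protein RIM at mouse synapses, ran from 54.0 to 67.7 CPM with a median of 60.5 in exposed libraries and from 44.4 to 62.2 CPM with a median of 54.0 in controls. Each of the 10 exposed libraries was higher than the control mean (1.12-fold higher, log2 fold change 0.164, SE 0.0582, adjusted p = 0.014), and without exposed replicates 1 to 4 its log2 fold change was 0.136 (adjusted p = 0.076).

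Fbxl20 was 1 of 3 tested genes among 5 listed for neurons and synapses, and the one that passed (33.3%, beside 57.6% of all tested genes). With upper-quartile factors or library size alone all 3 passed, where 59.2% and 57.8% of all genes passed. The higher share of all calls was then 58.8% and 61.3%, against 49.8% in the main fit. Fbxl16 ran from 1.18 to 2.46 CPM in exposed and from 0.834 to 2.0 CPM in control libraries (adjusted p = 0.0646). Fbxo45, which mice need for normal synapses and neuromuscular junctions, ran from 19.4 to 22.6 CPM in exposed and from 15.4 to 23.2 CPM in control libraries (log2 fold change 0.099, adjusted p = 0.108). The remaining 2, Fbxo2 and Fbxo41, were too scarce to test, with 64 and 41 counts over all exposed libraries and 47 and 28 over all controls. The part of the nerve marker excess of exposed replicates 1 to 4 in these values was not tested beyond leaving those libraries out.

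**Figure D4:**
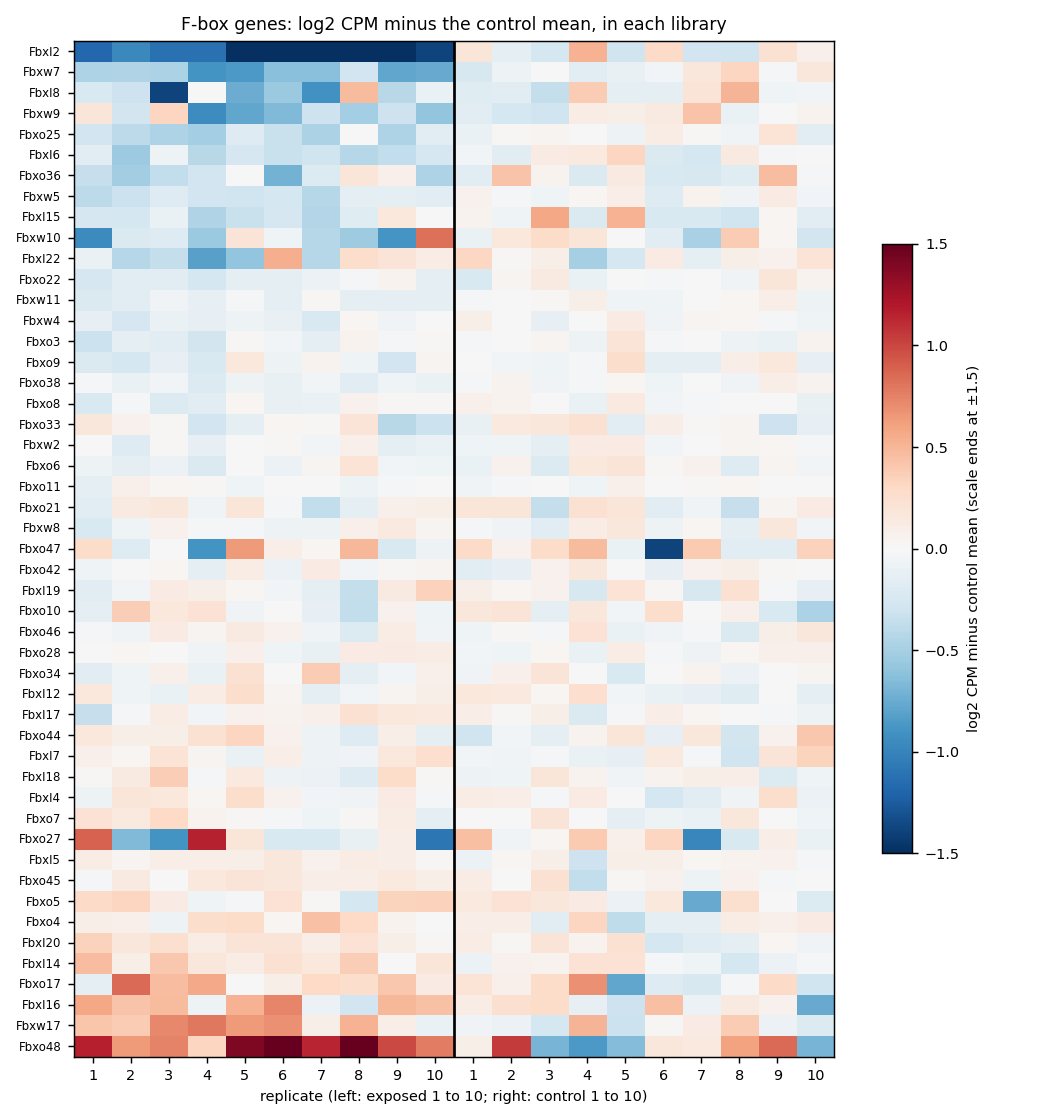
Log2 CPM minus the control mean (colour, scale ending at ±1.5) of the tested F-box genes but 1 that is not reported here, ordered by fold change, in exposed replicates 1 to 10 (left of the line) and control replicates 1 to 10 (right). Fbxl2 and Fbxw7 at the top are low in each exposed library and Fbxo48 at the bottom is high in each, while single cells of strong colour elsewhere belong to scarce genes such as Fbxo27 and Fbxo47.

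Among the most abundant F-box transcripts per length, Fbxo3, Fbxo11 and Fbxo9 did not pass the test, while Fbxw5 and Fbxw11 passed with the falls given above. As CPM per kb of exon, the levels in exposed and control muscle were 14.6 and 15.6 for Fbxo3, 11.5 and 13.8 for Fbxw5, 12.8 and 13.0 for Fbxo11, 11.4 and 12.3 for Fbxw11, and 11.5 and 12.3 for Fbxo9. Fbxl21, a gene of the circadian clock, was too scarce to test, at 0.175 to 0.612 CPM in exposed and 0.0595 to 0.427 CPM in control libraries. Fbxo3, reported in human and mouse cells to act on Fbxl2 itself, ran from 90.5 to 117 CPM with a median of 106 in exposed and from 106 to 129 CPM with a median of 112 in control libraries, with a log2 fold change of -0.099 (SE 0.0483, unadjusted p = 0.0493, adjusted p = 0.0797). Its log2 fold change was -0.039 with upper-quartile factors, -0.023 with library size alone and -0.013 without exposed replicates 1 to 4 (adjusted p = 0.821); it passed without exposed replicate 8 (-0.116, adjusted p = 0.0406).

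None of 3 tested genes listed for mitochondria and iron passed, beside 57.6% of all tested genes. Fbxl4, a restraint on mitophagy that causes mitochondrial disease when lost in humans, averaged 11.93 ± 0.967 CPM in exposed and 11.44 ± 1.22 CPM in control libraries (log2 fold change 0.064, adjusted p = 0.387). Fbxl5, the iron and oxygen sensor that controls the iron regulatory protein IRP2, averaged 38.22 ± 1.1 CPM in exposed and 35.95 ± 2.88 CPM in control libraries. All 10 exposed libraries were above the control mean of Fbxl5, its adjusted p was 0.0769, and it passed with upper-quartile factors, with library size alone and in DESeq2. That mean includes the low value of control replicate 4, at 28.8 CPM, with the next control at 33.7 CPM. Fbxo7, a gene of inherited parkinsonism in humans, averaged 11.68 ± 1.08 CPM in exposed and 11.17 ± 0.866 CPM in control libraries (adjusted p = 0.333).

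None of 3 genes listed for muscle or the sarcomere passed either, beside 57.6% of all tested genes. Fbxl22, which in mouse heart sits at the Z-disc, ran from 0.704 to 1.9 CPM in exposed and from 0.889 to 1.61 CPM in control libraries (log2 fold change -0.141, 95% interval -0.468 to 0.186, adjusted p = 0.468). It shares 317 exon bases with the far more abundant Herc1 on the opposite strand, which was 1.31-fold higher in exposed muscle. Fbxo9 ran from 31.1 to 42.5 CPM in exposed and from 34.6 to 45.4 CPM in control libraries (log2 fold change -0.099, adjusted p = 0.163). Fbxo21 averaged 20.66 ± 2.44 CPM in exposed and 20.90 ± 3.06 CPM in control libraries, with a 95% interval of -0.203 to 0.174 on the log2 scale (adjusted p = 0.89). Of the 5 genes whose proteins bind sugars on misfolded glycoproteins (Fbxo2, Fbxo6, Fbxo17, Fbxo27 and Fbxo44), 4 were tested. None of these passed, again beside 57.6% of all tested genes. The nearest was Fbxo17, with a log2 fold change of 0.29 (adjusted p = 0.11).

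The 23 untested genes were at 0 or too scarce to test. In 13 of them no read was counted in any of the 20 libraries, and in 3 more, Fbxo15, Fbxo43 and Fbxw26, there were 1 to 4 counts in all. Most belong to a cluster of Fbxw genes on chromosome 9 known from mouse oocytes. Of 16 genes listed for that group, 2 were tested: Fbxw17, on chromosome 13, which passed, and Fbxw10, on chromosome 11, at 0.799 to 2.91 CPM in exposed and 1.13 to 2.11 CPM in control libraries (adjusted p = 0.296). The remaining 7 untested genes had 12 counts (Fbxo16) to 170 counts (Fbxl21) in all. Among them Fbxl13 had 54 counts in exposed and 18 in control libraries and passed only where no filter on low counts was used. Fbxl13 shares 161 exon bases with Lrrc17 on the opposite strand, which was 3.82-fold higher in exposed muscle.

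The ligase machinery that F-box proteins join was listed separately, with 39 genes for SCF subunits, the ubiquitin-conjugating enzymes that serve them, and the cycle in which the small modifier NEDD8 is put on cullins and taken off. All 39 were tested. Of them 4 passed as higher and 22 as lower (66.7%, beside 57.6% of all genes). The median log2 fold change was -0.134, beside 0.0229 over all genes and -0.0296 over protein-coding ones. Of 13084 protein-coding genes tested, 3367 passed as higher and 4443 as lower. Without exposed replicates 1 to 4, 5 passed as higher and 16 as lower (21 of 39, beside 51.3% of all genes). With upper-quartile factors or library size alone, 7 passed as higher and 16 as lower (23 of 39). Over all genes 59.2% and 57.8% passed under these scalings, in that order.

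The scaffold Cul1 was 1.18-fold higher, with 83.0 to 104 CPM in exposed and 71.8 to 81.5 CPM in control libraries, which do not overlap (adjusted p = 1.03e-05). The adaptor Skp1a, named here after its values were seen because every F-box protein binds it, averaged 141.6 ± 12.1 CPM in exposed and 145.3 ± 7.55 CPM in control libraries (adjusted p = 0.484). Rbx1, the RING subunit and named for the same reason, was 1.18-fold lower, with 36.65 ± 2.97 CPM in exposed and 43.17 ± 2.31 CPM in control libraries (adjusted p = 8.71e-05). The 3 core subunits thus gave 1 rise, 1 fall and 1 value that did not pass.

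The other rises were in Ube2d1, a ubiquitin-conjugating enzyme, Sugt1, a chaperone partner that binds Skp1, and Cops4, a subunit of the COP9 signalosome, which takes NEDD8 off cullins. Ube2d1 was 1.46-fold higher, with 58.9 to 96 CPM in exposed and 45.2 to 55.7 CPM in control libraries (adjusted p = 7.52e-08). Sugt1 was 1.38-fold higher, with 83.3 to 113 CPM in exposed and 63.5 to 73.1 CPM in control libraries (adjusted p = 1.94e-08). In neither gene did the groups overlap. Cops4 averaged 65.79 ± 4.74 CPM in exposed and 58.61 ± 2.92 CPM in control libraries (1.12-fold higher, adjusted p = 0.00154).

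Among the falls, the smallest p belonged to Uba3, the catalytic subunit of the NEDD8-activating enzyme. Uba3 had 27.0 to 30.5 CPM in exposed and 38.4 to 45.1 CPM in control libraries, 1.43-fold lower (log2 fold change -0.518, SE 0.0263, adjusted p = 2.93e-12), while its partner Nae1 averaged 24.25 ± 1.44 CPM in exposed and 23.78 ± 1.56 CPM in control libraries (adjusted p = 0.608). Rnf7, the sister of Rbx1 found mainly on Cul5, had 27.5 to 35.6 CPM in exposed and 38.9 to 44.4 CPM in control libraries (1.3-fold lower, adjusted p = 1.72e-08). Ube2d2a, a close relative of the raised Ube2d1, had 20.6 to 23.9 CPM in exposed and 24.7 to 27.4 CPM in control libraries (1.19-fold lower, adjusted p = 7.21e-07). Groups were apart in all 3 of these falls and in Cops9, a small signalosome subunit. Cops9 was 1.29-fold lower, with 11.9 to 14.5 CPM in exposed and 14.7 to 19.9 CPM in control libraries (adjusted p = 1.1e-06). Over all 39 machinery genes the groups did not overlap in 11, beside 17.4% of all tested genes. Senp8, named here after its values were seen, had the largest change of the list. It was 1.52-fold lower, with 2.99 to 5.59 CPM in exposed and 5.68 to 7.65 CPM in control libraries (adjusted p = 3.56e-06). Senp8 was the 1 machinery gene to pass with a change of at least 1.5-fold, beside 19.7% of all tested genes.

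**Figure D5:**
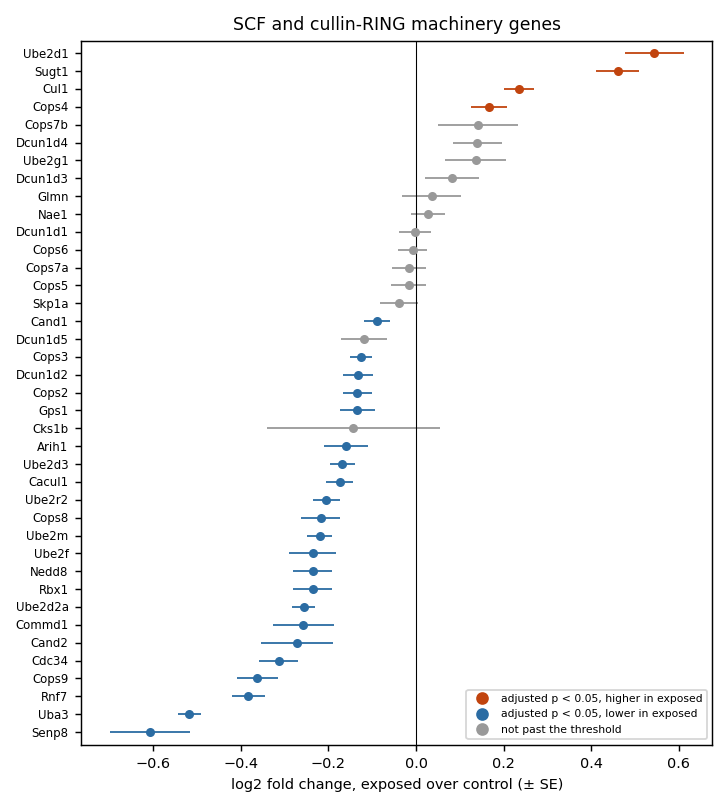
Log2 fold change, exposed over control, of the 39 genes of SCF ligases and the NEDD8 cycle, with horizontal lines for ± SE over 10 libraries a group; colours mark genes past an adjusted p of 0.05. There are 4 genes on the higher side, led by Ube2d1 and Sugt1, and 22 on the lower side.

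Of the 12 F-box genes in the table that the rule leaves out by symbol, 11 were tested, and 5 passed as higher and 4 as lower (81.8%, beside 57.6% of all genes). Fbxo31, which in human cells targets cyclin D, was 1.82-fold higher, with 162 to 228 CPM in exposed and 87 to 138 CPM in control libraries (adjusted p = 2.41e-09). Fbxo32 averaged 760.4 ± 204 CPM in exposed and 543.3 ± 76.9 CPM in control libraries (1.4-fold higher, adjusted p = 0.00734), and without exposed replicates 1 to 4 it was 1.39-fold higher (adjusted p = 0.0508). Its muscle-specific relative Fbxo40 was 1.41-fold lower, with 323.1 ± 62.8 CPM in exposed and 456.9 ± 43.5 CPM in control libraries (adjusted p = 5.63e-05). Fbxo30, which in mice takes part in denervation atrophy, was 1.12-fold lower (adjusted p = 0.0354), and Btrc, the paralog of Fbxw11, was 1.06-fold lower (adjusted p = 0.0459). Without exposed replicates 1 to 4 neither passed, with log2 fold changes of -0.108 for Fbxo30 (adjusted p = 0.226) and -0.036 for Btrc (adjusted p = 0.482). The histone demethylases Kdm2a and Kdm2b went opposite ways, with Kdm2a 1.14-fold higher (adjusted p = 2.63e-05) and Kdm2b 1.12-fold lower (adjusted p = 0.0165). The remaining rises were Lmo7, a LIM domain protein, 1.23-fold higher (adjusted p = 3.87e-05), and Skp2, a receptor for cell cycle inhibitors, 1.29-fold higher (adjusted p = 0.0345). Skp2 was 1.23-fold higher without exposed replicates 1 to 4 and did not pass (adjusted p = 0.16). The share of genes past the threshold was not tested between this list and the 73 genes.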

How the data were processed

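Soleus RNA was sequenced as paired-end libraries depleted of ribosomal RNA, made from 90 ng of total RNA, per the labels' protocols. The authors deposited 1 table of raw counts of reads for each Ensembl gene, not normalized. Per the submitters' processing notes MultiQC 1.15, Subread, featureCounts 1.5.1, edgeR and GRCm39 were used. Their roles, the strand setting, the annotation release and how multi-mapping reads were handled are not stated. Reads shared by near-identical Fbxw paralogs could be lost or split by that step.

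Names, exon lengths and overlaps came from GENCODE M21 on GRCm38, matched by identifier for 51948 rows (97.6% of counts); rows with no name were kept. In R 4.3.3, edgeR 4.0.16 was run on all 20 libraries with filterByExpr (minimum count 10, minimum total 15), TMM scaling, robust quasi-likelihood fits and Benjamini-Hochberg adjustment over all 16778 tested genes. CPM values use TMM-scaled library sizes. SE values belong to the difference between mean log2 CPM of the groups (prior count 2), and the 95% interval of a fold change uses that SE. The labels give no batch. The test was first run on simulated data, with changes put into few genes. It recovered 42.9% of 56 changes of 1.25-fold, 71.2% of 73 of 1.5-fold and 88.7% of 71 of 3-fold. Of its 146 calls 7 were false. A far larger share of genes passed in the real data, so these figures need not hold there.

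The genes and lists were chosen with earlier results of these data known. Named were every gene past the threshold, the 6 most abundant per length, genes of listed roles, and up to 4 genes a direction by smallest p of the machinery and of F-box genes under other symbols; 1 gene this rule takes is not reported here. As alternatives, scaling was by DESeq2 or upper-quartile factors or by library size, tests were DESeq2 1.42.0 and limma-voom (limma 3.58.1), filters were none or 1 CPM in 10 libraries, replicate number was a block, thresholds were a 1.2-fold change or an adjusted p of 0.01, and single libraries or exposed replicates 1 to 4 were dropped.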

Additional observations from a re-analysis of the deposited data

Results flagged for a closer look

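In 50 sets of 10 libraries, those of each named F-box gene and of their summed level in either group, a single library lay far from the rest in 2; chance flags about 1 in 20. Fbxo3 was 129 CPM in control replicate 5, with the next control at 117 CPM. Fbxl5 was 28.8 CPM in control replicate 4, with the next control at 33.7 CPM.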

How the results depend on the processing

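With any 1 library left out, the number of F-box genes past the threshold was 12 to 17, against 13 with all, with 4 to 5 higher and 8 to 12 lower. Of the 13, each such fit called 12 or 13; without exposed replicate 8 all 13 passed and Fbxl16, Fbxl8, Fbxo3 and Fbxo36 were added. Against a fold of 1.2, 3 F-box genes passed (1 higher, 2 lower), which was 6% beside 29% of all tested genes. Of the machinery genes 6 passed there (2 higher, 4 lower), and of F-box genes under other symbols 2. Under those symbols 5 passed at an adjusted p under 0.01, where 46.4% of all genes passed. Without exposed replicates 1 to 4 it was also 5, where 51.3% of all genes passed. Scaling moved directions: the F-box split was 7 higher and 5 lower with upper-quartile factors and 9 higher and 5 lower with library size alone, the machinery had 7 higher and 16 lower under either, and the F-box median log2 fold change was 0.0524 and 0.0745. The summed level, whose scaling alternatives were added after seeing the data, differed by 0.0055 and 0.0243. Over all genes the higher share of calls was 49.8%, 58.8% and 61.3%, in the order TMM, upper quartile, library size, with shifts of the median of 0.0599 and 0.0809. Fbxw4 also lost its call without exposed replicate 2 or 7 or control replicate 1 or 5, with DESeq2, and with either other filter. No named gene changed direction past the threshold. The cause of these moves was not tested.

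Same-numbered exposed and control libraries had correlations of deviations of -0.132 to 0.0982, none of 10 over 0.1. With a replicate block 13 F-box genes passed, 12 of them shared; Fbxw4 was lost and Fbxl8 gained, and Fbxo32 had an adjusted p of 0.0652. Depth limits the scarce genes: 23 F-box genes were not tested.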
